A study of Mus musculus with 9 samples.

Results

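Gene expression in mouse hearts was compared between 7 days and 1 day after an acute myocardial infarction. The study, whose title concerns the noncoding RNA gene AI662270 and the chaperone GRP94 of the endoplasmic reticulum (ER), measured total heart RNA by bulk RNA sequencing in 9 libraries of wild-type (WT) mice, and 6 of the 9 enter the comparison: 3 of infarct day 1 and 3 of infarct day 7. The other 3 are of control hearts after sham surgery, whose day of collection the labels do not give, and they serve here as a reference level and in the estimate of the spread. All groups are WT, and the labels name no other allele and no drug, and give neither age nor sex nor strain. Hearts of Hdc-/- mice, which the series also describes, were not analysed here. Nothing in the labels says that libraries of 1 group come from different animals. The p-values therefore rest on the spread among libraries, part of which may be technical. The region of the heart that was taken is not given either.

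After the blood supply of a part of the ventricle is cut off, dead muscle is first cleared by neutrophils and monocytes, which chemokines draw in. Fibroblasts then proliferate, turn into matrix-secreting cells and lay down collagen, which forms the scar that keeps the wall from rupturing. Because collagen and most other matrix proteins are folded in the ER, the chaperones of that compartment and the unfolded protein response, which induces them, are of interest at both times.

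The deposited values are FPKM, fragments scaled to transcript length and to the number of fragments mapped in the library, summed here over the transcripts of each gene. Genes with a 9-library mean below 1 FPKM were set aside, which left 13514 of 25468 for testing. Fold changes are differences of group means of log2(FPKM + 1), day 7 minus day 1, a scale that shrinks the change of weakly expressed genes. Bare values with ± in parentheses are log2 fold changes with their standard error (SE), and a gene counts as called where limma's p, Benjamini-Hochberg adjusted over all genes tested, is under 0.05. With 3 libraries on each side, exact permutation of a single gene reaches a two-sided p of 0.1 at best, and was not used.

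Summed over all genes, the libraries held 597380 to 729940 FPKM at day 1 and 521643 to 679204 at day 7. The number of reads behind a value is unknown. Some libraries stood apart in markers of other tissues and cell types. The 11 airway genes summed to 1844 FPKM in day 1 replicate 2 and to between 3.29 and 31.1 in the other infarct libraries. The 9 atrial genes summed to between 292 and 11301 FPKM at day 1 and between 816 and 5505 at day 7. In day 7 replicate 2, the 17 T and natural killer cell genes summed to 182.0 FPKM, against 17.7 to 54.7 in the other infarct libraries, and the 14 skeletal muscle genes to 1520 FPKM, against 751 to 1165. In day 7 replicate 1, mitochondrially encoded genes made up 24.4% of all FPKM, against 34.2% to 39.8% in the other infarct libraries. The contractile genes that define heart muscle were high in every library, with Myh6, the main myosin heavy chain of the adult mouse heart, at 5714, 4206 and 3894 FPKM at day 1 and 2919, 4542 and 5387 at day 7.

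Of the 13514 genes tested, 366 were higher and 289 lower at day 7 than at day 1 (2.71% and 2.14%), together 4.85%. By at least 2-fold, 120 were higher (0.888%) and 107 lower (0.792%). An unadjusted p under 0.05 was found for 3132 of the 13514 genes, which is the reference for such counts in the lists below. The day 1 and day 7 libraries did not overlap for 27.2% of the genes, with day 7 above for 13.1% and below for 14.1%. Of the called genes, 620 were protein coding. Without day 1 replicates 1, 2 and 3 in turn, 175, 75 and 257 genes were higher and 177, 62 and 244 lower. Without day 7 replicates 1, 2 and 3, the counts were 160, 275 and 102 higher and 114, 160 and 89 lower. With the FPKM of each library rescaled to the same total (TPM), 113 genes were higher and 72 lower.

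**Figure D1:**
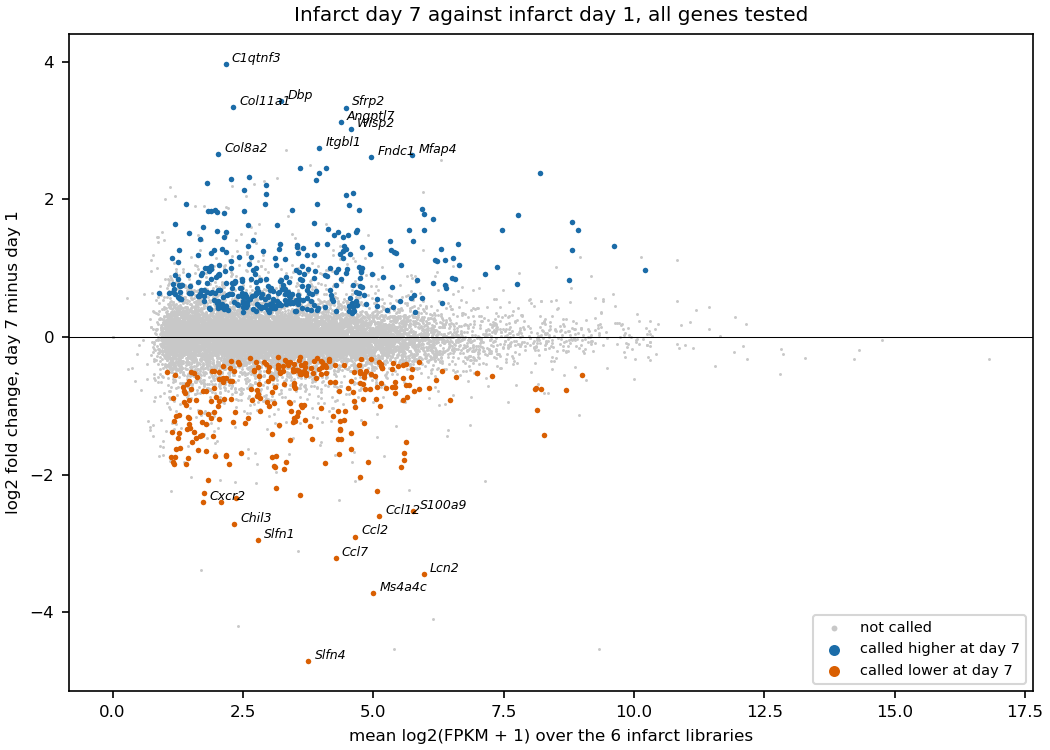
Log2 fold change between infarct day 7 and infarct day 1 (vertical axis, on the log2(FPKM + 1) scale) against the mean log2(FPKM + 1) over the 6 infarct libraries (horizontal axis) for the 13514 genes tested. Blue points are the 366 genes called higher at day 7, orange points the 289 called lower, and the named genes are the 10 largest rises and the 10 largest falls, from 3.97 for C1qtnf3 to -4.71 for Slfn4.

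C1qtnf3, a secreted protein of the C1q and TNF related family, had the largest rise named and was at 0.122, 0.233 and 0.0513 FPKM at day 1 and at 34.8, 7.86 and 16.6 FPKM at day 7 (log2 fold change 3.97 with an SE of 0.41, adjusted p = 0.00309). In sham hearts it was at 0.0839, 0.209 and 0.229 FPKM, so the gene was near 0 in all libraries but those of day 7. The 10 largest rises also held Col11a1, Sfrp2, Angptl7, Wisp2 (Ccn5), Itgbl1, Col8a2, Mfap4 and Fndc1, with log2 fold changes between 2.61 and 3.33, and the clock gene Dbp. In each of these 10 genes, the lowest day 7 library was above the highest day 1 library, which the choice of the 10 required. In bulk RNA, more cells of a type and more RNA of a gene per cell cannot be told apart, which holds for all gene groups here.

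Fibrillar collagens, the load-bearing fibres of a scar, rose in 5 of 8 tested genes and fell in 0, against 2.71% of all genes tested that rose. Their median log2 fold change was 1.25, against -0.01 over all genes tested. Col1a1, a chain of type I collagen, was at 256, 285 and 218 FPKM at day 1 and 1047, 747 and 668 at day 7, after 50.1, 46.1 and 77.7 in sham (log2 fold change 1.67 with an SE of 0.23, adjusted p = 0.0109). Col1a2, the other chain, went from 307, 322 and 226 to 1109.9, 733 and 707 FPKM (1.56 ± 0.25). All day 7 libraries were above all day 1 libraries for both chains, and day 1 was above sham. Col11a1, a chain of type XI collagen that sits inside type I and II fibres, was at 0.702, 0.751 and 0.261 FPKM at day 1 and 32.8, 8.78 and 10.7 at day 7 (log2 fold change 3.33 with an SE of 0.40, adjusted p = 0.00662). Here the day 1 libraries were close to sham (0.327, 0.380 and 0.290 FPKM) and only day 7 stood out. Col5a1 and Col5a2, which start the assembly of fibres, rose as well (1.12 ± 0.22 and 1.35 ± 0.31). Col3a1, of the fine fibres of early scars, was at 852, 832 and 598 FPKM at day 1 and 2098, 1515 and 1493 at day 7. The libraries did not overlap, yet the gene did not pass the test (1.16, 95% confidence interval 0.41 to 1.91, adjusted p = 0.081). The count of 5 was 3, 2 and 4 without day 1 replicates 1, 2 and 3 and 3, 5 and 3 without day 7 replicates 1, 2 and 3, and 3 with TPM.

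Of 15 tested collagens that form no fibres, 7 rose and 0 fell, where 2.71% of all genes tested rose and 2.14% fell. Their median was 1.12. Col8a2, a chain of the network-forming type VIII collagen, was at 0.789, 0.782 and 0.307 FPKM at day 1 and 19.6, 5.16 and 7.33 at day 7 (2.66 ± 0.39). Col16a1, which sits on the surface of fibres, went from 11.9, 11.2 and 9.76 to 69.2, 32.4 and 38.3 FPKM (1.92 ± 0.24). Col14a1, Col15a1, Col6a1 and Col6a2 were among the other rises, besides Col6a5. Among enzymes that process and crosslink collagen, 5 of 27 rose and 0 fell. They included Adamts2, which removes the amino-terminal propeptide of procollagen (1.55 ± 0.27), Bmp1, which removes the carboxy-terminal one (0.94 ± 0.11), and P4ha3, a prolyl hydroxylase subunit (1.46 ± 0.30). Bmp1 was at 17.8, 18.5 and 19.3 FPKM at day 1 and 42.9, 32.7 and 35.01 at day 7, with sham at 9.16, 8.67 and 9.86. The crosslinking enzyme Lox was at 33.2, 42.5 and 51.2 FPKM at day 1 and 139.8, 56.4 and 49.9 at day 7, not called (0.80, 95% confidence interval -0.03 to 1.63, adjusted p = 0.234), with sham at 3.28, 3.45 and 5.52. Without day 1 replicates 1, 2 and 3 and day 7 replicates 1, 2 and 3, the 7 rises of non-fibrillar collagens became 5, 3, 7, 6, 7 and 4, and the 5 of the processing enzymes 2, 1, 3, 4, 6 and 2. With TPM the latter were 2.

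Proteins that organise elastic fibres and microfibrils rose in 6 of 17 tested genes and fell in 0, with a median of 1.21. Among all genes tested, 2.71% rose and 2.14% fell. Mfap4, which binds elastin and collagen, was at 28.5, 31.6 and 9.16 FPKM at day 1 and 240.3, 85.6 and 114 at day 7 (2.65 ± 0.49). Ltbp2, a protein of microfibrils, went from 4.90, 6.94 and 7.24 to 78.3, 23.2 and 31.6 FPKM (2.45 ± 0.46), and Mfap5 from 36.6, 23.96 and 41.1 to 155, 92.3 and 109 (1.78 ± 0.24). Of the small leucine-rich proteoglycans, which bind collagen fibres and set their width, 4 of 13 rose: Aspn, Bgn, Prelp and Lum. Aspn (asporin) was at 43.8, 34.99 and 36.4 FPKM at day 1 and 190.0, 92.8 and 116 at day 7 (1.71 ± 0.25), and its day 1 values lay near those of sham (35.5, 46.8 and 53.4 FPKM). Basement membrane genes rose in 2 of 18 cases, Lama2 (0.87 ± 0.18) and Nid1 (0.79 ± 0.14). Leaving out the libraries in the same order gave 5, 2, 4, 4, 6 and 2 rises of the elastic fibre genes, 4, 0, 2, 2, 3 and 1 of the proteoglycans and 2, 0, 1, 1, 4 and 0 of the basement membrane genes. With TPM, 1 proteoglycan and 0 basement membrane genes rose.

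Matricellular proteins, which are secreted into the matrix and act on cells rather than bear load, rose in 11 of 26 cases and fell in 1 (median 0.76). The shares over all genes tested were 2.71% and 2.14%. Postn (periostin), which marks activated fibroblasts, was at 117, 123 and 144 FPKM at day 1 and 1072, 439 and 638 at day 7 (log2 fold change 2.38 with an SE of 0.40, adjusted p = 0.0203). At day 1 it overlapped the range of sham (47.6, 133 and 92.9 FPKM). Fn1 (fibronectin), which is laid down before collagen, was at 103, 111 and 139 FPKM at day 1 and 616, 325 and 323 at day 7 (1.77 ± 0.28), so a gene already 4.48 times the sham mean at day 1 rose further. Cthrc1, a secreted protein of activated fibroblasts, went from 7.79, 15.1 and 10.9 to 98.9, 27.2 and 44.96 FPKM (2.09 ± 0.44). Wisp2 went from 8.12, 8.89 and 5.36 to 158, 35.99 and 50.8 FPKM (3.02 ± 0.46) and Thbs2 (thrombospondin-2) from 7.23, 6.89 and 3.92 to 56.2, 25.4 and 29.1 (2.38 ± 0.30). The 1 matricellular gene that fell was Tgfbi, a secreted protein induced by TGF-beta, from 35.03, 46.6 and 46.97 to 18.5, 20.4 and 13.7 FPKM (-1.25 ± 0.26). Of the 14 that were not called, Tnc (tenascin-C) was at 18.9, 22.1 and 64.8 FPKM at day 1 and 24.3, 18.03 and 15.3 at day 7 (-0.65, 95% confidence interval -1.78 to 0.48, adjusted p = 0.481), and Spp1 (osteopontin) at 215, 309 and 378 and 78.5, 90.5 and 43.3 (-2.10, 95% confidence interval -3.37 to -0.83, adjusted p = 0.0689). Without day 1 replicates 1, 2 and 3 and day 7 replicates 1, 2 and 3, the 11 rises became 4, 3, 8, 5, 11 and 4, and the fall of Tgfbi was lost in each case. With TPM 7 rose and 0 fell.

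**Figure D2:**
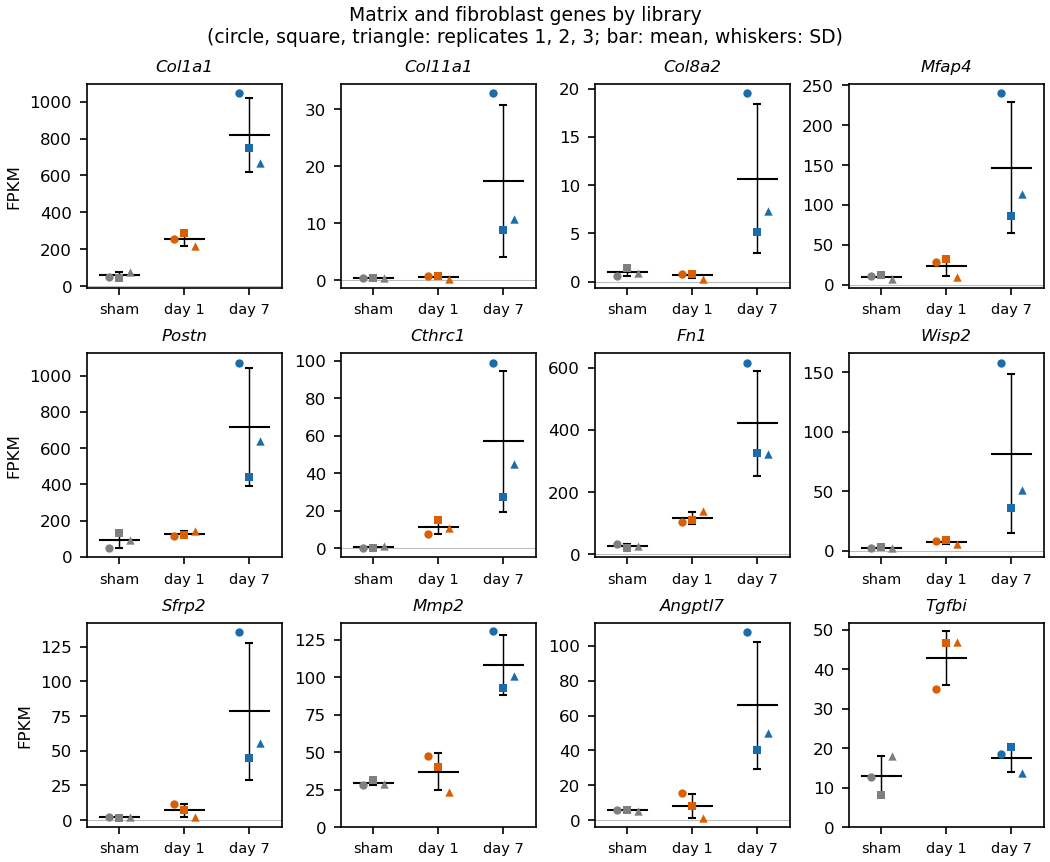
FPKM (vertical axes, linear) of 12 matrix and fibroblast genes in the 3 sham, 3 day 1 and 3 day 7 libraries (horizontal axes), 1 point per library, with the mean as a bar and the SD as whiskers. In 11 of the genes the day 7 libraries lie above those of day 1, with day 7 replicate 1 (circle) the highest, and Tgfbi is lower at day 7.

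Day 7 replicate 1 was the highest of the 3 day 7 libraries for nearly all of these genes, for example with 1072 FPKM of Postn against 439 and 638. The same library had the lowest Myh6 of the 6 infarct libraries (2919 FPKM) besides its low share of mitochondrially encoded genes, and the part of this in the matrix results was not tested. Without it, the counts given above remained above 0 for every list named.

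Genes that break down matrix moved both ways, where 2.71% of all genes tested rose and 2.14% fell. Of 27 proteases and their inhibitors, 7 rose and 4 fell (median -0.10). The rises included Mmp2, a gelatinase made by fibroblasts (47.7, 39.9 and 23.7 FPKM at day 1, 131, 92.8 and 101 at day 7, 1.56 ± 0.24), and the inhibitors Timp2 (1.11 ± 0.23) and Timp3 (0.85 ± 0.20). The falls were the aggrecanase Adamts4 (-1.73 ± 0.41), the leukocyte sheddase Adam8 (-1.41 ± 0.30), the neutrophil collagenase Mmp8 (-1.39 ± 0.22) and stromelysin, Mmp3 (-1.22 ± 0.23). Mmp3 was at 25.5, 37.6 and 29.6 FPKM at day 1 and 13.9, 13.9 and 10.05 at day 7. The inhibitor Timp1 was at 130.0, 177 and 253 FPKM at day 1 and 81.2, 94.1 and 51.7 at day 7, without overlap, and did not pass the test (-1.28, 95% confidence interval -2.51 to -0.06, adjusted p = 0.196). Leaving out the libraries in the order above gave 4, 3, 5, 2, 3 and 2 rises and 5, 0, 1, 0, 3 and 0 falls, and TPM 2 rises and 1 fall.

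Markers of activated fibroblasts rose in 8 of 24 tested genes and fell in 0 (median 0.83), against 2.71% and 2.14% of all genes tested. Besides Ltbp2, Postn, Cthrc1 and Fn1 the markers that rose were Ddah1, Piezo2, Aebp1 and Fap. Acta2, the smooth muscle actin of myofibroblasts, was at 213, 194 and 156 FPKM at day 1 and 143, 188 and 214 at day 7, with overlapping libraries (-0.05, 95% confidence interval -0.56 to 0.46, adjusted p = 0.912). Of 12 genes of late matrix-producing fibroblasts, 5 rose and 1 fell. Angptl7, a secreted angiopoietin-like protein, was at 15.3, 8.03 and 1.38 FPKM at day 1 and 108, 40.5 and 49.9 at day 7 (3.12 ± 0.63), and Cilp, a cartilage matrix protein, went from 11.3, 8.34 and 10.3 to 64.9, 31.5 and 43.7 (2.07 ± 0.41). Prg4 (lubricin) fell from 73.9, 79.96 and 103 to 19.1, 35.4 and 24.8 FPKM (-1.69 ± 0.34). Comp, another cartilage matrix protein, was at 12.03, 8.32 and 0.607 and 68.6, 19.4 and 23.8 FPKM and was not called (2.50, 95% confidence interval 0.73 to 4.27, adjusted p = 0.105). Markers of resting fibroblasts and progenitors had a median of -0.01, which was above 0 in 6 of 20 alternatives, with 4 of 20 higher and 1 lower. Cd248 (endosialin) was at 7.997, 7.94 and 7.42 FPKM at day 1 and 18.1, 21.5 and 17.5 at day 7, a narrow spread in both groups (1.18 ± 0.11). Pi16 rose (1.40 ± 0.32), and Nt5e, the ecto-nucleotidase CD73, fell from 8.41, 7.70 and 8.40 to 4.13, 3.66 and 4.45 FPKM (-0.85 ± 0.09). The rises of activated fibroblast markers numbered 2, 1, 6, 5, 9 and 1, those of late fibroblast genes 3, 0, 2, 3, 4 and 1 and those of resting markers 1, 1, 3, 1, 2 and 1 with the libraries left out in turn. Falls of late fibroblast genes numbered 0, 0, 0, 0, 1 and 0, so Prg4 was called in 1 of these 6 fits, and those of resting markers 2, 1, 2, 1, 1 and 1. With TPM the late fibroblast genes had 2 rises and 1 fall.

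Signalling genes that act on fibroblasts rose in small numbers, where 2.71% of all genes tested rose. Of 15 WNT ligands and antagonists 4 rose, with a median of 0.83: the secreted antagonists Sfrp2, Sfrp1 and Frzb and the ligand Wnt9a. Sfrp2 was at 11.3, 7.50 and 2.26 FPKM at day 1 and 135, 44.6 and 55.2 at day 7 (3.33 ± 0.52), Sfrp1 at 15.2, 11.4 and 11.5 and 58.5, 28.7 and 30.1 (1.48 ± 0.25), and Frzb at 11.02, 9.87 and 10.4 and 57.4, 20.96 and 23.95 (1.48 ± 0.34). All 3 antagonists were separated between the days. Of 31 TGF-beta ligands, receptors and regulators, 3 rose: Fstl1, a follistatin-like protein (1.55 ± 0.29), Bmp1 and Chrd. In the insulin-like growth factor system, the binding protein Igfbp6 rose from 14.3, 14.4 and 10.5 to 52.02, 42.1 and 53.8 FPKM (1.84 ± 0.20), Stc2 rose (0.87 ± 0.19) and the RNA-binding protein Igf2bp2 fell, out of 14 tested. Among 28 angiogenic genes 2 rose, Angptl2 (1.20 ± 0.12) and Fgfr1 (0.57 ± 0.13). Serpine2, an inhibitor of thrombin and plasminogen activators, was the 1 of 16 genes of clotting and its breakdown to rise (1.31 ± 0.23). The 4 WNT genes became 3, 2, 3, 4, 5 and 3, and the 3 of TGF-beta 1, 1, 1, 2, 4 and 1, with the libraries left out in turn. With TPM they were 2 and 1. Rises of the IGF system numbered 1, 1, 1, 1, 3 and 1, of the angiogenic genes 1, 1, 4, 1, 3 and 1 and of the clotting genes 0, 0, 1, 0, 1 and 0 with the libraries left out in the order above.

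Neutrophil markers were among the genes that fell. Of 17 tested neutrophil markers 8 fell and 0 rose, against 2.14% of all genes that fell, with a median of -1.53. S100a9, a subunit of the abundant calcium-binding protein of neutrophils, was at 64.5, 185 and 183 FPKM at day 1 and 17.1, 37.9 and 15.3 at day 7 (log2 fold change -2.54 with an SE of 0.44, adjusted p = 0.0224), with sham at 40.1, 30.4 and 36.7. Its partner S100a8 was at 20.1, 77.5 and 93.3 FPKM and 9.45, 20.1 and 8.65, where day 1 replicate 1 and day 7 replicate 2 were level, and was not called (-2.07, 95% confidence interval -3.28 to -0.85, adjusted p = 0.0627). Cxcr2, the chemokine receptor of neutrophils, fell from 4.60, 7.51 and 8.38 to 0.398, 0.734 and 0.259 FPKM (-2.40 ± 0.21), a level near that of sham (0.364, 0.352 and 0.671). Csf3r, the receptor of the neutrophil growth factor, fell from 11.4, 18.9 and 18.1 to 3.73, 4.36 and 2.67 FPKM (-1.89 ± 0.27), and Il1r2, a decoy receptor of interleukin-1, from 3.90, 8.20 and 7.89 to 0.326, 0.831 and 0.461 (-2.27 ± 0.33). Lcn2 (lipocalin-2), an iron-withholding protein of neutrophil granules and of stressed tissue, went from 184, 203 and 230.1 to 19.8, 31.1 and 9.12 FPKM (-3.44 ± 0.69). The whole neutrophil list summed to 445 to 811 FPKM at day 1, 109.5 to 268 at day 7 and 103 to 202 in sham. Without day 1 replicates 1, 2 and 3 and day 7 replicates 1, 2 and 3, the 8 falls became 9, 4, 7, 5, 8 and 5.

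Markers of recruited monocytes fell in 3 of 20 cases and rose in 1 (median -1.03), against 2.14% and 2.71% of all genes tested. Summed over the list they overlapped between the days, with 1253 to 2201 FPKM at day 1 and 1403 to 1850 at day 7. Ms4a4c, a surface protein of inflammatory monocytes, was at 112, 179.8 and 74.96 FPKM at day 1 and 6.98, 9.45 and 7.07 at day 7 (-3.72 ± 0.41), and day 7 was also below sham (26.3, 11.9 and 37.3). Chil3, a chitinase-like protein, fell from 8.08, 22.6 and 9.19 to 0.458, 2.39 and 0.530 FPKM (-2.72 ± 0.59), and the 1 member that rose was Fn1, which fibroblasts also make. Ccr2, the receptor that monocytes need to leave the bone marrow, was at 41.3, 64.1 and 49.97 FPKM at day 1 and 12.9, 14.6 and 7.35 at day 7 without overlap and missed the threshold (-2.09, 95% confidence interval -3.28 to -0.91, adjusted p = 0.0573). The same held for Arg1, which splits arginine in activated macrophages (21.8, 50.3 and 83.7 and 3.25, 19.1 and 7.53 FPKM, -2.36, 95% confidence interval -3.71 to -1.02, adjusted p = 0.0575). Of 20 genes shared by macrophages in general, 1 was called: Fcgr1, a high-affinity receptor for IgG, fell from 22.9, 42.9 and 17.2 to 5.46, 4.92 and 3.18 FPKM (-2.30 ± 0.34). The summed level of these genes was 1033 to 1723 FPKM at day 1 and 1112 to 1516 at day 7, so the 2 days overlapped. Among 16 resident macrophage markers, Fcna (ficolin-A) rose from 2.55, 2.91 and 2.21 to 7.31, 23.3 and 21.02 FPKM (2.21 ± 0.50) and the chemokine Pf4 fell (-1.79 ± 0.33). Lyve1 and Timd4, the surface proteins often used to define these cells, were not called (-0.54, 95% confidence interval -1.16 to 0.08, adjusted p = 0.28; 0.31, 95% confidence interval -0.29 to 0.92, adjusted p = 0.525).

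Macrophage genes sorted by function gave few calls, where 2.71% of all genes tested rose and 2.14% fell. Of 27 genes of lipid-handling macrophages, Apoe, which carries lipids out of cells, rose from 890.1, 864 and 791 to 1913, 1646 and 1479 FPKM (0.98 ± 0.17), and Msr1, a scavenger receptor, fell from 28.8, 37.5 and 41.7 to 10.6, 12.4 and 8.08 (-1.70 ± 0.21). Trem2, a lipid-sensing receptor, was at 11.4, 13.9 and 17.1 and 24.2, 22.6 and 15.9 FPKM and was not called (0.53, 95% confidence interval -0.24 to 1.30, adjusted p = 0.388). Of 19 activation and repair genes, Chil3, Hmox1, Socs3 and Il4ra fell and 0 rose. Hmox1, which degrades haem, went from 43.6, 69.6 and 123 to 14.2, 16.5 and 12.9 FPKM (-2.24 ± 0.33). Socs3, a feedback inhibitor of cytokine signalling, went from 16.7, 22.3 and 30.7 to 9.51, 7.30 and 5.86 (-1.48 ± 0.27). The 3 falls of monocyte markers became 3, 1, 4, 2, 5 and 2 and the 4 of the activation genes 4, 1, 2, 2, 3 and 1 with the libraries left out in turn, and with TPM they were 2 and 1. The rise among monocyte markers numbered 1, 0, 1, 1, 1 and 1 in the same order. Resident macrophage markers had 0, 0, 0, 1, 0 and 0 rises and 1, 0, 1, 0, 1 and 0 falls, and lipid-handling genes 0, 1, 1, 0, 1 and 1 rises and 2, 1, 1, 1, 1 and 1 falls, with the libraries left out in the order above.

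Chemokines, the signals that draw these cells in, fell in 9 of 28 tested genes and rose in 1, with a median of -0.85. Among all genes tested, 2.14% fell and 2.71% rose. Ccl2, Ccl7 and Ccl12, ligands of Ccr2, were separated by wide gaps. Ccl2 was at 54.9, 71.5 and 78.5 FPKM at day 1 and 8.20, 11.04 and 5.999 at day 7 (log2 fold change -2.90 with an SE of 0.23, adjusted p = 0.00186). Ccl7 was at 49.3, 60.95 and 64.7 and 4.69, 8.20 and 3.93 FPKM (-3.21 ± 0.28), and Ccl12 at 65.6, 106 and 86.1 and 16.7, 11.99 and 10.9 (-2.61 ± 0.19). For all 3 the day 7 levels lay near or below sham, which was at 9.02, 10.4 and 14.1 FPKM for Ccl2 and 21.6, 21.2 and 24.00 for Ccl12. The neutrophil attractants Cxcl5 (10.2, 10.7 and 10.7 to 1.15, 2.02 and 0.841 FPKM, -2.33 ± 0.22) and Cxcl1 (-1.81 ± 0.28) fell as well, as did Pf4, Ccl9, Ccl4 and Ccl3. The 1 chemokine that rose was Cx3cl1 (fractalkine), from 1.82, 2.50 and 3.62 to 10.3, 5.42 and 6.02 FPKM (1.16 ± 0.24). The chemokine receptor Ccr1 fell, too (13.4, 18.7 and 23.5 to 4.49, 4.89 and 2.98 FPKM, -1.92 ± 0.28). The 9 falls became 9, 4, 7, 7, 8 and 4 with the libraries left out in turn, and 6 with TPM. Ccl2, Ccl7 and Ccl12 kept their call in all 20 alternatives. Rises among chemokines numbered 0, 0, 1, 0, 1 and 0 in the same order.

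Receptors of cytokines and of microbial patterns were among the falls, where 2.14% of all genes tested fell and 2.71% rose. Of 28 interleukin, TNF and colony-stimulating factor genes, the receptors Il1r2, Csf3r, Il4ra and Il1r1 fell and Il34, a ligand of the macrophage growth factor receptor, rose (0.85 ± 0.17). The ligand Il1b was at 8.19, 13.2 and 17.7 FPKM at day 1 and 5.45, 6.66 and 2.63 at day 7 without overlap and was not called (-1.25, 95% confidence interval -2.01 to -0.49, adjusted p = 0.0689), and Il6 was at 3.07, 4.50 and 16.8 and 5.07, 2.16 and 1.22 (-1.08, 95% confidence interval -2.30 to 0.14, adjusted p = 0.27). Of 28 pattern recognition and inflammasome genes 8 fell and 0 rose: the formyl peptide receptors Fpr1 and Fpr2, the lectin receptor Clec4e, the inflammasome sensor Nlrp3, the toll-like receptors Tlr1, Tlr6 and Tlr13, and their adaptor Myd88. Fpr2 went from 3.80, 7.78 and 4.45 to 0.784, 1.36 and 0.730 FPKM (-1.66 ± 0.22). Complement genes moved in both directions, with Cfi and Serping1, which restrain the cascade, higher (1.09 ± 0.18 and 0.92 ± 0.20) and the receptor C5ar1 lower (-0.94 ± 0.15), of 24. With the libraries left out in turn, the 8 falls of pattern recognition genes became 6, 2, 5, 3, 5 and 3 and the 4 of the receptors 3, 2, 2, 2, 2 and 2, and with TPM 3 and 2. Complement genes had 2, 1, 2, 0, 1 and 0 rises and 1, 0, 1, 1, 1 and 0 falls, and interleukin genes 0, 0, 0, 0, 1 and 0 rises.

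**Figure D3:**
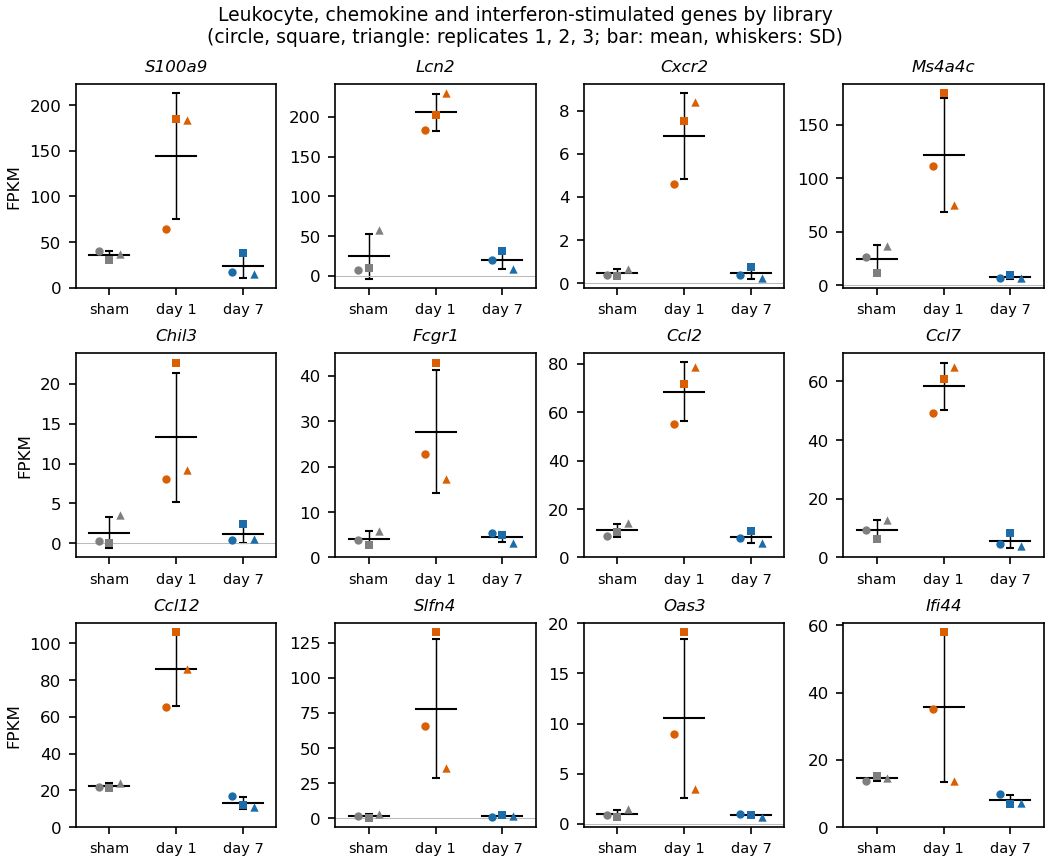
FPKM (vertical axes, linear) of 12 leukocyte, chemokine and interferon-stimulated genes in the 3 sham, 3 day 1 and 3 day 7 libraries (horizontal axes), 1 point per library, with the mean as a bar and the SD as whiskers. Every gene is lower in all day 7 libraries than in all day 1 libraries, and for Ms4a4c, Fcgr1, Slfn4, Oas3 and Ifi44 day 1 replicate 3 (triangle) is the lowest of day 1.

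Of the genes induced by type I interferon 7 of 36 passed the test, against 2.14% of all genes that fell. The count moved with every library left out. All 36 tested genes had a log2 fold change below 0, between -2.39 and -0.34 (median -1.10), 20 of them without overlap (14.1% of all genes had day 7 below day 1 without overlap), and 7 fell. Oas3, a sensor of double-stranded RNA, was at 9.0002, 19.1 and 3.45 FPKM at day 1 and 1.01, 0.860 and 0.647 at day 7 (-2.39 ± 0.45). Ifi204, a DNA sensor, went from 56.7, 76.8 and 35.3 to 10.8, 12.9 and 13.3 FPKM (-2.04 ± 0.25), and Ifi44 from 35.2, 58.1 and 13.7 to 9.72, 6.83 and 7.29 (-1.83 ± 0.42). Ifi44l, Oasl1, Oas2 and Trim30a were the others that fell. Irf7, the transcription factor that amplifies the response, was at 73.9, 141 and 27.2 FPKM at day 1 and 19.2, 19.6 and 18.5 at day 7 (-1.74, 95% confidence interval -2.83 to -0.65, adjusted p = 0.0763), and Isg15, a ubiquitin-like modifier, at 50.97, 91.4 and 16.6 and 16.9, 10.1 and 12.2 (-1.67, 95% confidence interval -2.81 to -0.53, adjusted p = 0.0962). In both, day 1 replicate 3 was far below the other 2 libraries of its group. The whole list summed to 851 to 2616 FPKM at day 1 and to 657 to 737 at day 7, against 1074 to 1614 in sham. Without day 1 replicate 3, 29 of the 36 fell. The count was 1, 3, 1, 1 and 1 without day 1 replicates 1 and 2 and day 7 replicates 1, 2 and 3, and 2 with TPM. Interferon-inducible GTPases of host defence, a related family, had 0 calls by limma in 18 tested genes (1 at an unadjusted p under 0.05), and 2 falls without day 1 replicate 3, with Igtp at 14.8, 27.3 and 11.5 FPKM at day 1 and 8.97, 14.4 and 9.98 at day 7 after 322, 367 and 194 in sham (-0.58, 95% confidence interval -1.34 to 0.19, adjusted p = 0.347).

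Some promoters of the interferon-stimulated genes hold the word of the interferon-stimulated response element, which the STAT and IRF factors bind. It was searched as GAAA, any 2 bases and GAAA on both strands of the 250 bases before the start site in RefSeq's promoter sequences (build GRCm38.p6). It was found in 13 of the 28 listed genes with a promoter sequence (46.4%) and in 3.46% of all 27025 genes with one. Of 5 genes that fell and had a promoter sequence, 2 held it. The sequences of these 2 and of Isg15 are shown 5′ to 3′ on the gene's strand, with the matching letters in capitals (in reverse complement for Trim30a, and as 3 overlapping matches in Isg15).
Oas3, chr5:120777713-120777746, minus strand: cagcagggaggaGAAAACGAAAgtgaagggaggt
Trim30a, chr7:104465208-104465241, minus strand: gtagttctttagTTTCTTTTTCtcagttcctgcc
Isg15, chr4:156200863-156200908, minus strand: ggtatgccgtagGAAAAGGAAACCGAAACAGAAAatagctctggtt
A match says only that these letters are present in the window.

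Chaperones and folding enzymes of the ER were among the falls. Of 31 tested genes 12 fell and 0 rose, against 2.14% of all genes that fell, with a median of -0.37, and for 21 the day 7 libraries were all below those of day 1, as for 14.1% of all genes. Hsp90b1, which encodes GRP94, the chaperone of the HSP90 family in the ER, was at 366, 379 and 409 FPKM at day 1 and 241, 221 and 222 at day 7 (log2 fold change -0.75 with an SE of 0.10, adjusted p = 0.00864). The day 7 libraries lay within or just below the range of sham (222, 245 and 227 FPKM). Hspa5, which encodes BiP, the ER's Hsp70 and the brake on its stress sensors, went from 341, 327 and 408 to 226, 203 and 206 FPKM (log2 fold change -0.75 with an SE of 0.12, adjusted p = 0.0195), with sham at 225, 269 and 227. Sdf2l1, which supports that chaperone, had the largest fall of the list, from 29.98, 29.5 and 36.99 to 11.9, 12.2 and 11.8 FPKM (-1.35 ± 0.12), with sham at 7.96, 8.94 and 10.6. The disulfide isomerases Pdia6 (110.4, 122 and 128 to 69.5, 61.9 and 59.1 FPKM, -0.91 ± 0.11), Pdia4 (-0.70 ± 0.09) and Pdia3 (-0.57 ± 0.11) fell. So did the lectin chaperones Calr (336, 367 and 374 to 236, 199 and 206 FPKM, -0.75 ± 0.11) and Canx (-0.52 ± 0.09), the cofactors Dnajb11 (-0.72 ± 0.09) and Hyou1 (-0.72 ± 0.13), and the secreted stress proteins Manf (-0.74 ± 0.15) and Creld2 (-0.80 ± 0.11). At day 7, Sdf2l1, Pdia4 and Creld2 were still above every sham library. The summed level of the list was 2354 to 2663 FPKM at day 1, 1570 to 1839 at day 7 and 1428 to 1540 in sham.

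Of other ER genes few moved, where 2.14% of all genes tested fell. Creb3l1, a stress-released transcription factor that drives collagen secretion, fell from 15.5, 17.8 and 16.6 to 8.37, 8.37 and 6.61 FPKM (-1.01 ± 0.10), and Xbp1, the target of the sensor IRE1, from 51.1, 52.8 and 56.4 to 44.8, 39.8 and 35.7 (-0.41 ± 0.10), of 22 stress sensors and factors. Ddit3, which encodes the death-promoting factor CHOP, was at 13.95, 13.5 and 15.2 FPKM at day 1 and 16.9, 15.7 and 16.7 at day 7 and was not called (0.20, 95% confidence interval -0.42 to 0.82, adjusted p = 0.709). Among 49 genes of entry into the ER, glycosylation and export, Rpn1, a subunit of the enzyme that adds sugar chains (-0.67 ± 0.10), and Sec61g, of the channel into the ER (-0.53 ± 0.12), fell. By limma 0 of 24 genes of ER-associated degradation were called (median -0.12), and 2 fell without day 7 replicate 1. Of the 24, 5 had an unadjusted p under 0.05, as had 3132 of all 13514 genes. Of 33 genes of the amino acid stress response, Cebpb, Cars and Tars fell. The 12 falls of ER chaperones became 11, 8, 10, 11, 9 and 7 without day 1 replicates 1, 2 and 3 and day 7 replicates 1, 2 and 3. Without both day 1 replicate 2 and day 7 replicate 2, 1 fell. With TPM only 2 passed, and with TPM computed without mitochondrially encoded genes 13 did. Exons of other genes overlap Hsp90b1, Pdia4 and Manf on the same strand, so some of the reads counted for these 3 could come from their neighbours. In that order, the stress sensors and factors had 1, 1, 1, 2, 1 and 1 falls, the entry and export genes 1, 0, 1, 3, 1 and 0 and the amino acid stress genes 1, 0, 0, 0, 0 and 0.

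The ER stress response element, the word bound by ATF6 and XBP1 together with NF-Y, was searched as CCAAT, any 9 bases and CCACG on both strands of the same 250 bases. It was found in 8 of the 27 listed ER chaperone genes with a promoter sequence (29.6%), among them 6 of the 10 that fell and had one, and in 0.13% of all 27025 genes. The matching stretches of these 6 are shown because they lie in front of genes that fell, again from RefSeq on GRCm38.p6, 5′ to 3′ on the gene's strand, with the element in capitals (Calr, Creld2 and the second of Hsp90b1 in reverse complement).
Hsp90b1, chr10:86705521-86705668, minus strand: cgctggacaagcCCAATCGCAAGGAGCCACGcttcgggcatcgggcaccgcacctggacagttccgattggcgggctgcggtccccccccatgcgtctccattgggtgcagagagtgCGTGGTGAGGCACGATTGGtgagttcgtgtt
Hspa5, chr2:34772013-34772055, plus strand: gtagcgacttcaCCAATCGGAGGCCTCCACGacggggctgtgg
Calr, chr8:84847063-84847105, minus strand: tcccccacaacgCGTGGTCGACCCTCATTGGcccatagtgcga
Canx, chr11:50325788-50325830, minus strand: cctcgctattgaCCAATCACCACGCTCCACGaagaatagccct
Pdia6, chr12:17266479-17266521, plus strand: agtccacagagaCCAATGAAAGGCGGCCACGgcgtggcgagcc
Creld2, chr15:88819508-88819550, plus strand: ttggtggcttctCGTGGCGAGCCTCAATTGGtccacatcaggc
Dnajc3 and Ero1b (Ero1lb) also held the element and were not called. A match is a description of the sequence and not evidence that a factor was bound.

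The series' title joins AI662270 and GRP94. AI662270 was at 9.30, 13.8 and 12.1 FPKM at day 1 and 3.95, 7.39 and 3.66 at day 7, with sham at 3.49, 2.02 and 4.11. All day 7 libraries were below those of day 1, and the difference missed the threshold (-1.12, 95% confidence interval -1.73 to -0.51, adjusted p = 0.0515). Over 20 alternatives its adjusted p ranged from 0.0295 to 0.151, and it was called in 3 of them: with quantile normalization, with array weights and without day 7 replicate 2. Another gene overlaps AI662270 on its strand. Hsp90b1 lost its call in 2 of 20 alternatives and Hspa5 in 5, TPM among both. Hdc, which encodes the histamine-forming enzyme, was at 3.27, 6.14 and 2.12 FPKM at day 1 and 1.74, 3.41 and 2.04 at day 7 (-0.46, 95% confidence interval -1.11 to 0.19, adjusted p = 0.378).

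Genes of mitochondrial dynamics, which the title also names, were not called between the days. Limma called 0 of 24 genes of fission and fusion (median 0.04) and 0 of 20 of mitophagy (median 0.09). An unadjusted p under 0.05 was found for 3 and 3 of them, and for 3132 of all 13514 genes. Without day 7 replicate 1, 1 fission and fusion gene rose, and over all 20 alternatives the most that rose was 2. The list's median was below 0 in 4 of 20 alternatives. Mfn1 and Mfn2, which fuse the outer membrane, were at 78.2, 64.5 and 75.2 and 99.6, 85.1 and 88.1 FPKM at day 1 and at 48.1, 73.1 and 93.4 and 70.8, 91.9 and 113 at day 7. Their log2 fold changes were -0.07 and -0.01, with 95% confidence intervals of -0.55 to 0.41 and -0.39 to 0.38. Opa1, which fuses the inner membrane, and the fission genes Dnm1l and Fis1 had intervals of -0.50 to 0.25, -0.49 to 0.02 and 0.08 to 0.46. Sham levels of Mfn2 were 143, 179 and 152 FPKM, above every infarct library at both days.

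Genes of the circadian clock moved in both directions: 8 of 19 tested genes rose and 4 fell, against 4.85% of all genes called either way. Each cell keeps this clock by a loop in which the activators Clock and Arntl (Bmal1) switch on their own repressors and a set of output genes. The genes that rose are repressors and outputs of the loop and are active in the opposite phase to the activators. Dbp, an output transcription factor, was at 1.84, 2.29 and 1.55 FPKM at day 1 and 26.2, 32.4 and 31.6 at day 7 (log2 fold change 3.42 with an SE of 0.29, adjusted p = 0.00186). Its day 7 mean was 15.8 times that of day 1, and sham was between the days (17.8, 6.38 and 10.9 FPKM). Per3, a repressor, was at 2.38, 2.11 and 1.65 and 10.4, 9.02 and 9.93 FPKM (1.83 ± 0.18). Nr1d1 (Rev-erb alpha), which represses Arntl, went from 7.88, 5.98 and 8.07 to 24.9, 24.7 and 25.1 FPKM (1.65 ± 0.16), where sham was at 36.6, 23.6 and 29.9, and Nr1d2 from 12.97, 11.5 and 11.3 to 33.3, 33.8 and 36.4 (1.46 ± 0.14). Ciart (1.54 ± 0.21), Tef (1.15 ± 0.15), Per1 (0.95 ± 0.20) and Bhlhe41 (0.84 ± 0.11) rose as well.

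In the other limb of the clock, Arntl fell from 8.52, 7.51 and 7.84 to 1.30, 2.003 and 1.25 FPKM (-1.84 ± 0.25), with sham at 3.29, 8.52 and 5.38 FPKM. Npas2, which can stand in for Clock, fell from 6.29, 3.81 and 3.72 to 0.337, 0.848 and 1.23 FPKM (-1.64 ± 0.33), and Clock itself from 14.6, 13.3 and 16.5 to 10.1, 8.68 and 10.6 (-0.55 ± 0.13). Nfil3, which acts against Dbp at shared sites, fell from 12.4, 13.5 and 17.5 to 3.21, 3.54 and 3.98 (-1.75 ± 0.26). None of these genes overlapped between day 1 and day 7. Per2 and Cry1 were not called (0.24, 95% confidence interval -0.11 to 0.59, adjusted p = 0.396; -0.42, 95% confidence interval -0.80 to -0.05, adjusted p = 0.17). With the libraries left out in turn, 7, 7, 7, 7, 8 and 8 clock genes rose and 2, 2, 2, 2, 3 and 2 fell, and with TPM 8 rose and 3 fell. Without both day 1 replicate 2 and day 7 replicate 2, 5 rose and 0 fell. Dbp, Per3, Nr1d1 and Nr1d2 kept their call in all 20 alternatives. The labels do not give the hour at which hearts were collected. Of 14 genes that respond to glucocorticoids, Per1 rose and Lcn2, Zbtb16, Mt2, Cdkn1a and Map3k6 fell, against 2.71% and 2.14% of all genes tested. Zbtb16, a transcription factor, went from 42.2, 36.5 and 21.8 to 6.37, 12.3 and 16.01 FPKM (-1.49 ± 0.32), and the stress-hormone target Fkbp5 was at 27.2, 27.95 and 20.5 and 10.7, 15.9 and 16.4 (-0.78, 95% confidence interval -1.26 to -0.31, adjusted p = 0.0686). Those 5 falls became 1, 0, 2, 1, 3 and 0 and the rise 0, 0, 0, 0, 1 and 1 with the libraries left out in turn, and 2 with TPM.

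The words of the clock were searched in the same way. The E-box CACGTG, bound by Clock and Arntl, was found in 5 of the 16 clock genes with a promoter sequence (31.2%), against 6.86% of all 27025 genes, and 4 of these 5 rose. The D-box TTATGTAA, bound by Dbp and Tef and by Nfil3, was found in Per3 alone of the 16 (0.977% of all genes), and the ROR element TAGGTCA, where Nr1d1 and Nr1d2 bind, in Nfil3 alone (2.55% of all). The matching stretches of the called genes are shown 5′ to 3′ on the gene's strand with the word in capitals, from RefSeq on GRCm38.p6 (in reverse complement for Nfil3).
Per1, E-box, chr11:69098771-69098800, plus strand: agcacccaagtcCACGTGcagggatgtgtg
Tef, E-box, chr15:81802534-81802563, plus strand: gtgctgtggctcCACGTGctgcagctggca
Ciart, 3 E-boxes, chr3:95882255-95882356, minus strand: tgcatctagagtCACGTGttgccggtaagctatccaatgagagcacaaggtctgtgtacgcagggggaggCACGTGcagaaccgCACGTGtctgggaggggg
Bhlhe41, E-box, chr6:145865556-145865585, minus strand: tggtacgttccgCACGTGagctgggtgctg
Per3, 2 D-boxes, chr4:151044804-151044882, minus strand: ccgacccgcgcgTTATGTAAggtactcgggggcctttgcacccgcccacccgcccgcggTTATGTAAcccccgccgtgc
Nfil3, ROR element, chr13:52981040-52981063, minus strand: ggcgctcggaacTGACCTActaac
A second promoter of Tef held 1 further E-box. Dbp had no such word in its window, which says nothing of sites elsewhere.

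**Figure D4:**
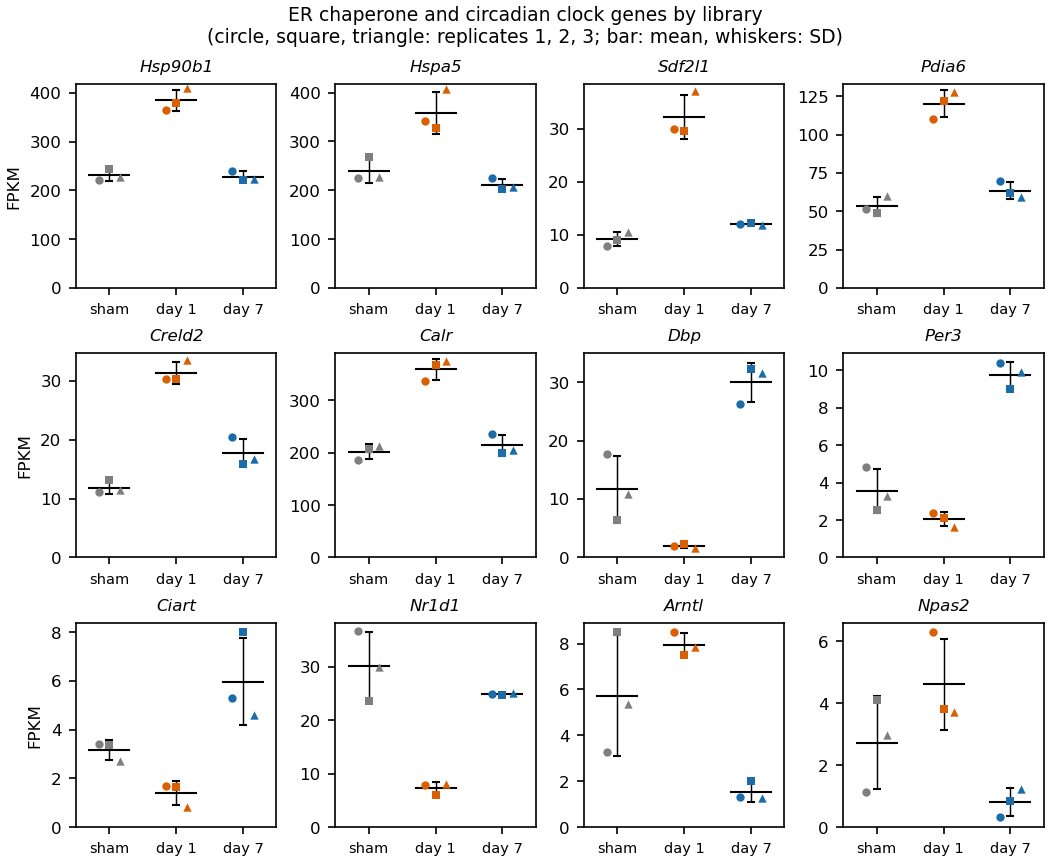
FPKM (vertical axes, linear) of 6 ER chaperone and 6 circadian clock genes in the 3 sham, 3 day 1 and 3 day 7 libraries (horizontal axes), 1 point per library, with the mean as a bar and the SD as whiskers. The 6 chaperones are lower at day 7 than at day 1, Dbp, Per3, Ciart and Nr1d1 are higher, and Arntl and Npas2 are lower.

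Genes of dividing cells were lower at day 7 for the most part, with few calls. Of 52 tested genes of mitosis, 50 had a log2 fold change below 0 and for 29 all day 7 libraries were below those of day 1 (14.1% of all genes), while 2 fell (median -0.55), where 2.14% of all genes fell: Hmmr (-1.01 ± 0.24) and Kif20a (-0.87 ± 0.18), both of the spindle. Mki67, the proliferation marker, was at 14.1, 15.95 and 17.4 FPKM at day 1 and 8.27, 16.1 and 8.90 at day 7 (-0.53, 95% confidence interval -1.21 to 0.15, adjusted p = 0.334), and Cdk1, the kinase that starts mitosis, at 7.34, 11.1 and 14.8 and 6.98, 7.50 and 6.06 (-0.58, 95% confidence interval -1.13 to -0.03, adjusted p = 0.194). For Mki67 the high value at day 7 was that of replicate 2, the library with the highest T cell markers, whose part in the result was not tested. Without that library 12 mitosis genes fell, and with quantile normalization also 12. Without any 1 of the other infarct libraries, and with TPM, limma called 0. Of 46 genes of DNA replication, Ccne2 fell (-0.50 ± 0.09). Of the genes that halt the cycle, Cdkn1a (p21) fell from 31.9, 34.3 and 33.4 to 18.4, 13.9 and 19.3 FPKM (-0.92 ± 0.21) and Phlda3 rose (1.00 ± 0.22), of 24. Without day 1 replicates 1, 2 and 3 and day 7 replicates 1, 2 and 3, falls of DNA replication genes numbered 1, 0, 1, 1, 0 and 0, and among the genes that halt the cycle rises numbered 0, 1, 0, 1, 1 and 0 and falls 0, 0, 0, 0, 0 and 0.

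Lists of stress and protein production genes held a few falls each, where 2.14% of all genes fell. Of 26 heat shock genes, Hsph1 (25.4, 26.9 and 32.3 to 12.1, 10.7 and 15.9 FPKM, -1.08 ± 0.23), Hspa8 (-0.77 ± 0.18) and Hsp90ab1 (-0.55 ± 0.13) fell, all of the cytosolic folding machinery. Of 28 antioxidant and metal genes, Hmox1, the metallothionein Mt2 (418, 477 and 652 to 146, 272 and 170.3 FPKM, -1.42 ± 0.31) and the zinc importer Slc39a14 (-1.02 ± 0.17) fell. Of 27 immediate early genes, Nr4a1 rose (1.14 ± 0.26) and Cebpb (-0.74 ± 0.15) and Zfp36 (-0.58 ± 0.12) fell. Nop2, which methylates ribosomal RNA, was the 1 of 47 ribosome biogenesis genes to fall (-0.88 ± 0.17), a share near that over all genes, and all 47 had a log2 fold change below 0 (median -0.25). With limma 0 of 82 ribosomal protein genes and 0 of 35 proteasome genes were called. An unadjusted p under 0.05 was found for 6 and 8 of them, and for 3132 of all 13514 genes. Left out in turn, the libraries gave 0 to 1 falls of heat shock genes and 1 to 3 of the antioxidant genes. With TPM 0 heat shock and 0 immediate early genes were called. Falls of ribosome biogenesis genes numbered 2, 0, 0, 0, 0 and 4 without day 1 replicates 1, 2 and 3 and day 7 replicates 1, 2 and 3, and immediate early genes had 0, 0, 2, 0, 0 and 0 rises and 2, 0, 0, 0, 0 and 0 falls.

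Genes of the heart muscle cell and its energy supply showed 0 calls in nearly all lists. By limma these were 0 of 29 sarcomere genes (median 0.03), 0 of 33 of calcium handling and excitation (-0.15), 0 of 18 cardiac transcription factors, 0 of 36 and 0 of 43 nuclear-encoded subunits of respiratory complex I and of complexes II to V, 0 of 13 mitochondrially encoded genes, 0 of 26 of the tricarboxylic acid cycle and 0 of 34 of fatty acid oxidation. At an unadjusted p under 0.05 these lists held, in that order, 2, 4, 2, 3, 2, 1, 0 and 0 genes. Over all genes tested it was 3132 of 13514. Myh6 was at 5714, 4206 and 3894 FPKM at day 1 and 2919, 4542 and 5387 at day 7, overlapping (-0.13, 95% confidence interval -0.71 to 0.45, adjusted p = 0.802). For Atp2a2, the calcium pump of the muscle's internal store, the levels were 1636, 1354 and 1308 and 734, 1269 and 1555 FPKM (-0.33, 95% confidence interval -0.91 to 0.25, adjusted p = 0.481). Myl2, the ventricular light chain, was at 3288, 3809 and 6013 and 3268, 5486 and 6264 (0.19, 95% confidence interval -0.50 to 0.88, adjusted p = 0.749). In each of these 3 genes the interval includes both a fall and a rise, and the day 7 libraries spread more widely than those of day 1 for Myh6 and Atp2a2. Sarcomere genes summed to 26758 to 37434 FPKM at day 1 and 26946 to 39770 at day 7, below the 48682 to 57887 of sham. Of 21 genes of wall stress, Npr2, a natriuretic peptide receptor, rose (0.39 ± 0.09), where 2.71% of all genes tested rose. Nppa and Nppb were not called (-0.29, 95% confidence interval -3.34 to 2.76, adjusted p = 0.921; 0.10, 95% confidence interval -1.15 to 1.35, adjusted p = 0.933), and Nppa is also an atrial gene whose level spread from 192 to 5921 FPKM within day 1. Leaving out any 1 infarct library, and each of 4 other scalings, also gave 0 calls among sarcomere, calcium handling and cardiac factor genes. With array weights 2 sarcomere genes, 4 of complex I and 1 of complexes II to V rose. Complex I also had 1 rise without day 1 replicate 3, with TPM and with quantile normalization, and complexes II to V 1 with TPM. The medians of the sarcomere and calcium handling lists changed sign in 2 of 20 alternatives each. Rises of wall stress genes numbered 1, 0, 0, 0, 0 and 0 without day 1 replicates 1, 2 and 3 and day 7 replicates 1, 2 and 3.

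Markers of other cell types of the heart gave few calls, where 2.71% of all genes tested rose and 2.14% fell. By limma 0 of 20 endothelial genes were called (1 at an unadjusted p under 0.05, median 0.10). Of 20 smooth muscle and pericyte genes Notch3 rose (0.73 ± 0.15), of 8 lymphatic genes the guidance factor Sema3d (1.41 ± 0.29), and of 9 Schwann cell genes Pmp22 (0.56 ± 0.13). Mesothelial and epicardial genes rose in 3 of 14 cases: Muc16 (1.93 ± 0.37), Wt1 (4.85, 5.14 and 5.28 to 7.97, 9.86 and 9.65 FPKM, 0.73 ± 0.16) and Tbx18 (0.52 ± 0.10), the last 2 being transcription factors of the epicardium. Cd83, a marker of mature dendritic cells, rose from 1.29, 1.53 and 1.62 to 5.62, 5.48 and 3.94 FPKM (1.27 ± 0.13), the 1 of 13 genes of MHC class II presentation to do so, and 0 of 21 MHC class I genes were called (2 at an unadjusted p under 0.05). Scgb3a1, a secretoglobin, fell from 9.98, 5.33 and 7.15 to 0.974, 1.74 and 1.85 FPKM (-1.73 ± 0.41); unlike the airway list as a whole, this gene was not highest in day 1 replicate 2. T cell, B cell, mast cell, atrial, skeletal muscle, adipocyte and erythroid lists had 0 calls by limma, and 1, 0, 0, 0, 1, 0 and 0 genes at an unadjusted p under 0.05. Even so, all 11 tested skeletal muscle genes had a log2 fold change above 0 (median 1.51). Over the 20 alternatives that median lay between 0.28 and 2.50. The 3 mesothelial genes became 2, 0, 1, 0, 2 and 0 without day 1 replicates 1, 2 and 3 and day 7 replicates 1, 2 and 3. In the same order, rises of smooth muscle genes numbered 0, 0, 3, 0, 1 and 0, of lymphatic genes 1, 0, 0, 0, 1 and 0 and of Schwann cell genes 0, 0, 0, 0, 1 and 0, and falls of airway genes 0, 0, 0, 0, 0 and 0.

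**Figure D5:**
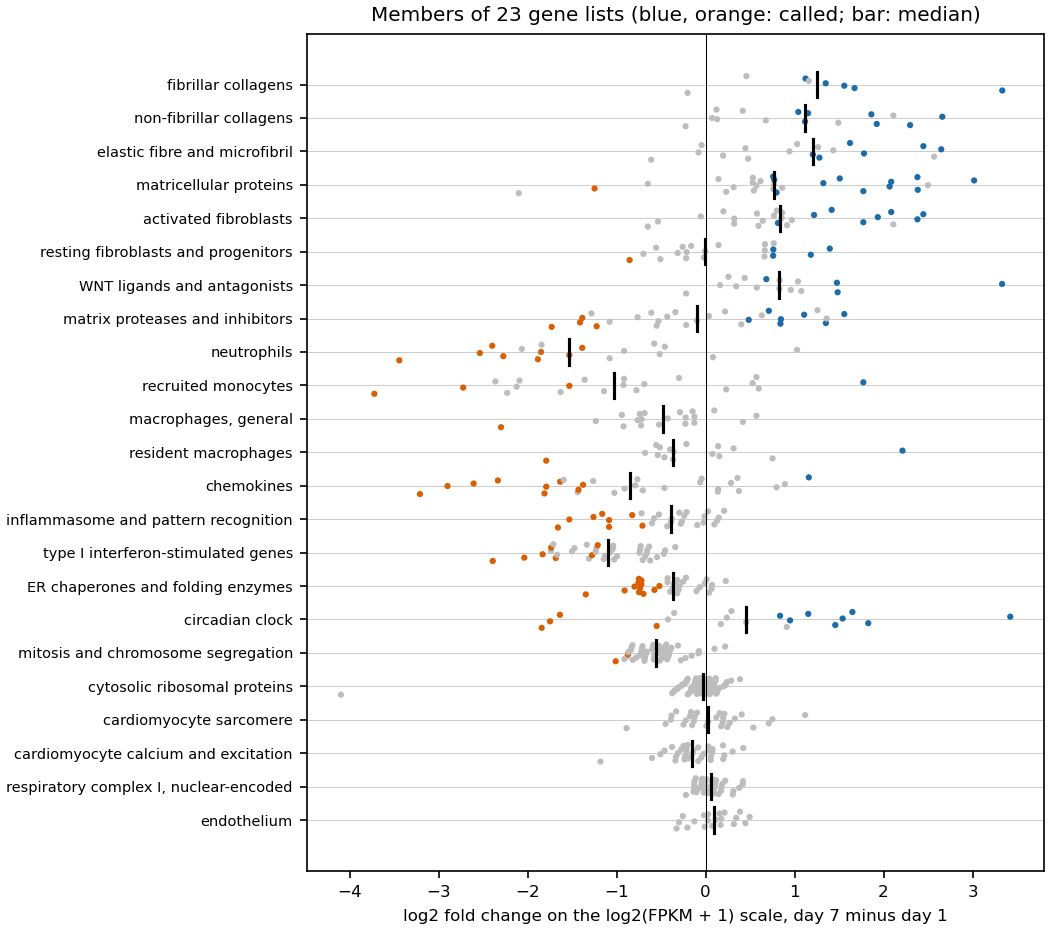
Log2 fold change between infarct day 7 and infarct day 1 on the log2(FPKM + 1) scale (horizontal axis) for the tested members of 23 gene lists (vertical axis), 1 point per gene. Blue and orange points are genes called higher and lower, grey points were not called, and black bars are list medians, from -1.53 for neutrophil markers to 1.25 for fibrillar collagens.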

How the data were processed

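Bulk RNA sequencing of heart RNA from 9 libraries of WT mice was used. The deposited table gives FPKM per transcript, normalized by the authors for transcript length and library depth. Per the submitters' processing notes, FastQC 0.11.9, HISAT2 2.1.0, HTSeq 0.11.2 and the build GRCm39 were used. Read counts were not used here, so depth is unknown. FPKM were summed per gene, filtered at a mean of 1 FPKM, transformed as log2(FPKM + 1) and fitted with limma 3.58.1 in R 4.3.3, with 3 groups sharing 1 estimate of the spread, a mean-variance trend and Benjamini-Hochberg adjustment over 13514 genes. The code was tested on simulated data. Alternatives changed the pseudocount, filter, scaling, model and libraries.

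Gene lists and the part of the series described were chosen with earlier results of these data known. Named are the 10 largest rises and falls (called, without overlap, 5 FPKM or more), the genes of the title and its pathways, up to 3 called genes per list and the most abundant gene of each cell type list. All other named genes were chosen after their values were seen. Promoters and overlapping exons come from GRCm38 annotation, and 18 of the 245 named genes overlap another gene's exon on the same strand. Without strand information such reads cannot be assigned with certainty.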

Additional observations from a re-analysis of the deposited data

How the results depend on the processing

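In 20 alternatives none of the called genes named changed direction. List medians did: for 29 of 75 lists the sign differed in at least 1 alternative, 26 of them with a median near 0 and the others the T and natural killer cell (0.71), airway (-1.76) and atrial (-0.71) lists. Of the 105 called genes named by rule, 27 kept their call in all 20 and 54 in at least 15. The 366 genes higher and 289 lower at day 7 were 242 higher with a minimum mean of 5 FPKM, 113 and 72 with TPM, 78 and 88 with only the 6 infarct libraries fitted, and 584 and 466 with array weights. By at least 2-fold, 120 were higher and 107 lower. These became 55 and 58 with only the 6 infarct libraries, 70 lower without a filter, 61 lower with a minimum of 5 FPKM and 54 lower with TPM. Leaving out 1 infarct library gave 75 to 275 genes higher and 62 to 244 lower, and 54 to 142 and 41 to 128 by at least 2-fold. Without both day 1 replicate 2 and day 7 replicate 2, an alternative chosen after seeing the data, 45 were higher and 30 lower, and 43 and 29 by at least 2-fold. In that fit 1 fibrillar collagen, 2 matricellular genes and 0 WNT genes rose, and 1 ER chaperone, 2 neutrophil markers and 6 chemokines fell. The cause was not tested.

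With the replicate number as a block, 144 genes were higher and 93 lower, and 50 lower by at least 2-fold. The labels do not say that the numbers pair the libraries, and deviations of same-numbered libraries correlated at 0.054, 0.229 and 0.178, of which the first is low. Each library correlated best with its own number, though day 1 replicate 1 was at 0.04 with day 7 replicate 3. With 3 libraries per group, this cannot show whether the numbers pair the libraries. Depth is unknown, so the precision of low values cannot be given.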

Other observations

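Gene families that form no list of their own, chosen after their values were seen, also held calls. Over all genes tested, 2.71% rose and 2.14% fell. Because the families were chosen in this way, their counts are a description and not a test. Of 7 tested schlafen genes, interferon-inducible genes of immune cells, 5 fell and 0 rose (median log2 fold change -1.21). Slfn4 had the largest fall of all genes named, from 65.5, 132 and 36.1 FPKM at day 1 to 1.19, 2.21 and 1.63 at day 7 (log2 fold change -4.71 with an SE of 0.48, adjusted p = 0.00309 by limma), with sham at 1.41, 0.596 and 3.32. Of 9 tested MS4A genes, a family of leukocyte membrane proteins, 5 fell and 0 rose (median -1.34). Members of both families are alike in sequence, so reads may be split between them. Of 7 tested genes of the C1q and TNF related family, to which C1qtnf3 belongs, 5 rose and 0 fell (median 1.10). Of 20 tested genes of hnRNP proteins, which bind nuclear RNA, 4 fell and 0 rose (median -0.27).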
